A study of Homo sapiens with 45 samples.

Results

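SPP1 and GCNT3 are 2 of the 15698 genes in a normalised expression matrix of HCT116-VR cells, and they were chosen by the very values described here. In the libraries KF_30, KF_15 and KF_2, which held the lowest PSMD13 of the series, both genes lay far above the other 42 libraries. The height of that difference is therefore a description and was given no test. SPP1 read 4.57, 4.50 and 4.49 on the log2 scale in KF_30, KF_15 and KF_2, where the other 42 libraries had a median of -1.05 and reached 0.56. GCNT3 read 3.18, 3.80 and 3.13 in the same libraries, where the others had a median of -1.60 and reached 0.49. The unit is log2 of CPM (reads per 1000000 reads of the scaled library), with 0.5 reads added to each count before scaling.

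SPP1 encodes osteopontin, a secreted phosphoprotein of the SIBLING family that binds integrins and CD44 and is found in bone matrix, in inflamed tissue and in many carcinomas. GCNT3 encodes the mucin-type core 2 and core 4 N-acetylglucosaminyltransferase, a Golgi enzyme that adds the branch on which larger O-glycans of mucins are built in gut epithelium. PSMD13 encodes a non-ATPase subunit of the lid of the 19S regulatory particle, the cap of the 26S proteasome that receives ubiquitinated proteins and feeds them to the 20S core for degradation. Cells with a failing proteasome are known to raise the transcription of proteasome subunit genes through the transcription factor NFE2L1.

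HCT116-VR is a subline of the colorectal carcinoma line HCT116 that tolerates vorinostat, a histone deacetylase inhibitor to which it was adapted over time. The cells were reverse transfected with a pool of siRNAs at 40 nM, or with lipid alone as mock, and RNA was taken at 48 h. The 15 conditions, 3 libraries each, were mock and siRNAs against BEGAIN, CCNK, CDK10, DPPA5, EIF3L, GLI1, JAK2, NFYA, POLR2D, PSMD13, RGS18, SAP130, TGM5 and TOX4. All libraries therefore came from 1 resistant line, without the parental cells. In bulk RNA, fewer cells of a kind and less RNA per cell cannot be told apart.

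The columns of the matrix carry library numbers, and the labels of the samples do not give them. A sample list that accompanied the study pairs the numbers with siRNAs, but the target genes go against it. Of the 11 siRNA targets present in the matrix, 0 had their 3 lowest libraries under the siRNA listed against them. That list names KF_30 as siSAP130 replicate 2, KF_15 as siTOX4 replicate 1 and KF_2 as siBEGAIN replicate 1. In contrast, 10 of the 11 targets had their 3 lowest libraries in 1 set of 3 adjacent columns. Libraries are hence named by number and grouped into the 15 sets of adjacent columns, and a set is described by the target gene lowest in it. No siRNA was assigned to any set, and no test was made between sets. The 3 libraries of a set are described by each value or by their lowest, median and highest, and not as replicates of a condition.

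Reads per library ranged from 7569592 to 21149597 with a median of 11551126, and from 10233062 to 13863101 in KF_30, KF_15 and KF_2. A library with 0 reads for a gene stands at -3.88 or lower on the log2 scale, depending on its depth. A count of 0 allows up to 3 reads at 95% when only the upper side is limited, a level of -2.50 to -1.07 across the libraries. Most of the spread of SPP1 and GCNT3 below those values hence lies at the limit of detection. In the intervals given with read numbers, which are limited on both sides, a count of 0 reaches 3.69 reads. These limits, and the intervals given with read numbers, cover counting error only. The epithelial identity of the line was visible in all libraries. Of 6 epithelial markers (EPCAM, KRT8, KRT18, KRT19, CDH1 and VIL1), 5 were in the matrix, with a summed level of 3801 to 4053 CPM in KF_30, KF_15 and KF_2 and of 2376 to 4428 in the other 42 libraries.

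The sequence just upstream of the canonical start of each gene is shown because the pair was high together. In GRCh37, SPP1 (ENSG00000118785) is a protein-coding gene on the plus strand of chromosome 4, positions 88896819 to 88904684, with 7 exons and 1561 bases in its canonical transcript, which starts at 88896866. GCNT3 (ENSG00000140297) is a protein-coding gene on the plus strand of chromosome 15, positions 59887074 to 59932438, with 3 exons and 4934 bases in its canonical transcript, which starts at 59903982. The sequences printed are the longest stretch of the 250 bases before the canonical start that lies outside every annotated exon of the gene. For SPP1 that is chr4:88896616-88896818 and for GCNT3 chr15:59903876-59903981, both given 5′ to 3′ on the plus strand. The GCNT3 stretch lies inside the annotated gene, which begins at 59887074, and is upstream of the canonical start only. Capitals mark the only motif match.
SPP1: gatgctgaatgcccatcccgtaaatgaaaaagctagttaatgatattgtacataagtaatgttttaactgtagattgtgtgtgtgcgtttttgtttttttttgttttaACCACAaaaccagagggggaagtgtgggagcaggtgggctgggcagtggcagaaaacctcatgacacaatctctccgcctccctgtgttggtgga
GCNT3: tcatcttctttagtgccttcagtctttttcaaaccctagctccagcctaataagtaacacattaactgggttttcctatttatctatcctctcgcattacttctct

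Short motifs of known factors were searched on both strands in the 250 bases, and 1 match was found in SPP1 and none in GCNT3. The match is the RUNX core TGTGGT, read as ACCACA on the plus strand at 142 to 137 bases upstream of the canonical SPP1 start. Of the 15276 genes with such a window, 8.18% held that motif. The windows of both genes held no match to the TATA box (TATAAA, 7.35% of all windows), the AP-1 site (TGANTCA, 3.74%), the antioxidant response element (TGACNNNGC, 11.6%, which can overlap the AP-1 site) or the C/EBP-ATF element (TGATGCAA, 0.419%). They also held no heat shock element (GAANNTTC, 3.91%), GC box (GGGCGG, 63.0%) or CCAAT box (CCAAT, 33.5%). Both windows were poor in G and C, with 44.8% in SPP1 and 40.4% in GCNT3, whereas the quartiles over all windows were 54.8% and 72%. A match is a description of letters, and the absence of one speaks only of these 250 bases.

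The reads behind the SPP1 values were few but well separated. KF_30 held 251 SPP1 reads (exact Poisson 95% interval 221 to 284), KF_15 held 296 (263 to 332) and KF_2 held 218 (190 to 249). The other 42 libraries held a median of 5 reads and at most 20, the latter in KF_38, with 5 libraries at 0 reads. In CPM with no reads added, the 3 libraries lay between 22.3 and 23.8, while the others had a median of 0.444 and reached 1.43 in KF_49. The lowest of the 3 was thus 15.6-fold above the highest of the other 42, and the medians were 50.7-fold apart. The 3 libraries differed from each other by 0.089 on the log2 scale, the narrowest range of SPP1 in any of the 15 sets. Counting error widens the log2 range of sets with few reads, so the sets cannot be compared evenly by this range.

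GCNT3 was the lower of the pair and more uneven. KF_30 held 95 GCNT3 reads (exact Poisson 95% interval 76.9 to 116), KF_15 held 183 (157 to 212) and KF_2 held 85 (67.9 to 105). Scaled to CPM, KF_15 (12.0 to 16.1) stood apart from KF_30 (7.28 to 11) and KF_2 (6.96 to 10.8), whose intervals overlap each other. The other 42 libraries held a median of 4 reads and at most 14, in KF_12, with 4 libraries at 0 reads. In CPM, the 3 libraries lay between 8.71 and 13.9, while the others had a median of 0.297 and reached 1.35. The lowest of the 3 was 6.44-fold above the highest of the other 42, and the medians were 30.4-fold apart. The plot of both genes by library shows the 3 libraries alone above all others.

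**Figure D1:**
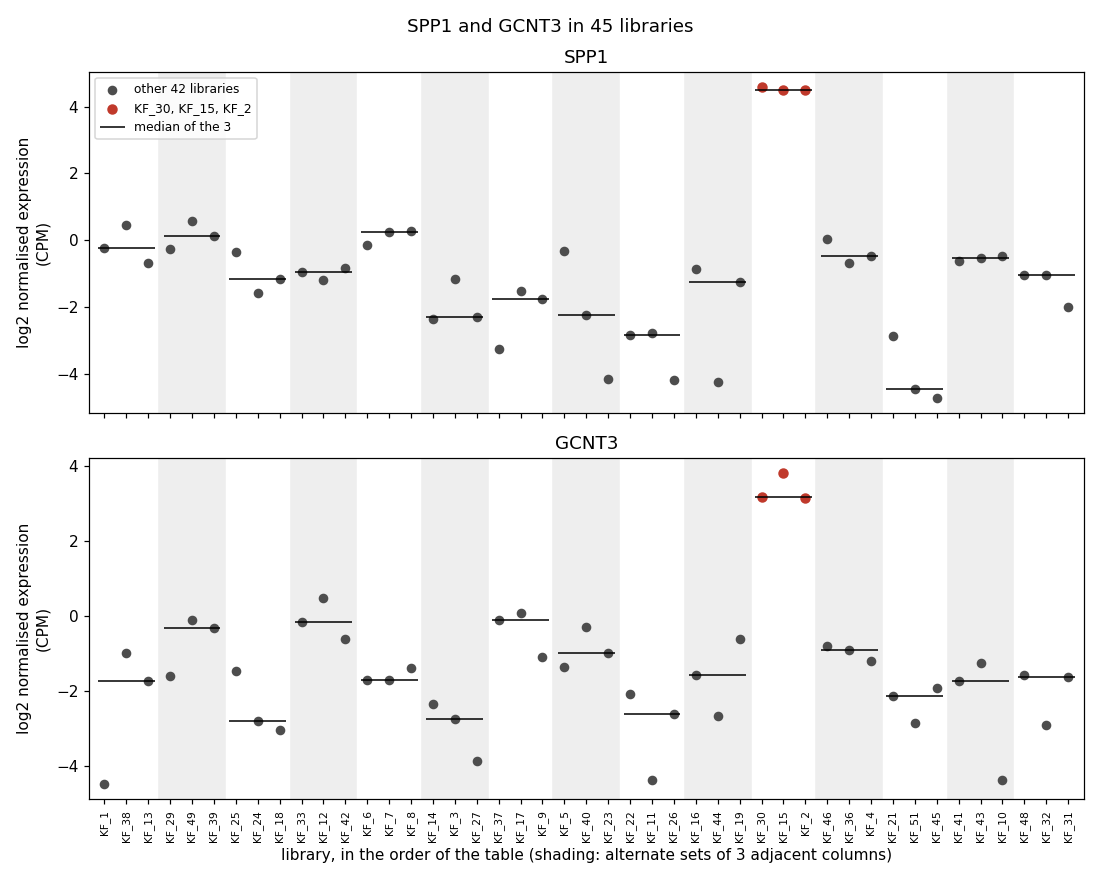
Log2 normalised expression (CPM, vertical axis) of SPP1 (top) and GCNT3 (bottom) in each of the 45 libraries, in the order of the matrix, with a line at the median of each set of 3 adjacent columns. KF_30, KF_15 and KF_2 (red) lie at 4.49 to 4.57 for SPP1 and at 3.13 to 3.80 for GCNT3, and no other library exceeds 0.56 or 0.49.

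Levels per base of canonical transcript place both genes beside others of the lists. The median of the 3 libraries was 14.4 RPKM (reads per kilobase of transcript, scaled for depth) for SPP1 and 1.82 for GCNT3, against medians of 0.284 and 0.060 in the other 42 libraries. On the same scale CD44, the cell-surface receptor of osteopontin and hyaluronan, had a median of 224 in the 3 libraries. The integrin gene ITGAV had 18.5 there, the transglutaminase gene TGM2 10.8 and the transcription factor gene ETS1 1.66. SPP1 thus lay far below CD44 but near ITGAV and TGM2, and GCNT3 near ETS1. Per length, GCNT3 thus stayed below SPP1 in the 3 libraries as in the others.

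PSMD13 (ENSG00000185627, chromosome 11, positions 236966 to 252984) gave the 3 libraries their place. It read 2.47 in KF_30, 3.05 in KF_15 and 3.32 in KF_2 on the log2 scale, from 58, 108 and 97 reads. The other 42 libraries lay between 7.71 and 8.46 with a median of 8.10. The median of the 3 libraries was 2.99% of the median of the others in CPM. Within the 3 libraries, PSMD13 was lowest in KF_30, SPP1 was highest in KF_30 and GCNT3 was highest in KF_15. For SPP1 the exact Poisson 95% intervals in CPM of all 3 libraries overlapped, so its order lay within counting error. For PSMD13 the intervals of KF_30 and KF_2 were apart, while that of KF_15 overlapped both. Only for GCNT3 did KF_15 stand apart from the others. Whether the order of the 3 libraries differed between genes cannot be read from these counts.

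Across all 15698 genes, 599 (3.82%) had all 3 values above the other 42 libraries, that is, above the highest of them, and 250 (1.59%) had all 3 below. A gap of at least 1 log2 unit between the lowest of the 3 and the highest of the other 42, called the step here, was present upward in 27 genes (0.172%). SPP1 had the highest step, 3.92, and GCNT3 the second, 2.65. Just behind them came AKR1B10, an aldo-keto reductase, with a step of 2.39, and OSGIN1, an oxidative stress response gene, with 2.12. By the difference of medians SPP1 ranked first (5.54), AKR1B10 second (5.41) and GCNT3 next (4.77). AKR1B10 and OSGIN1 were named after their values were seen, as the genes next to the members. The median difference over all genes was -0.01. The histogram of steps shows the separation of the pair from the rest of the transcriptome.

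**Figure D2:**
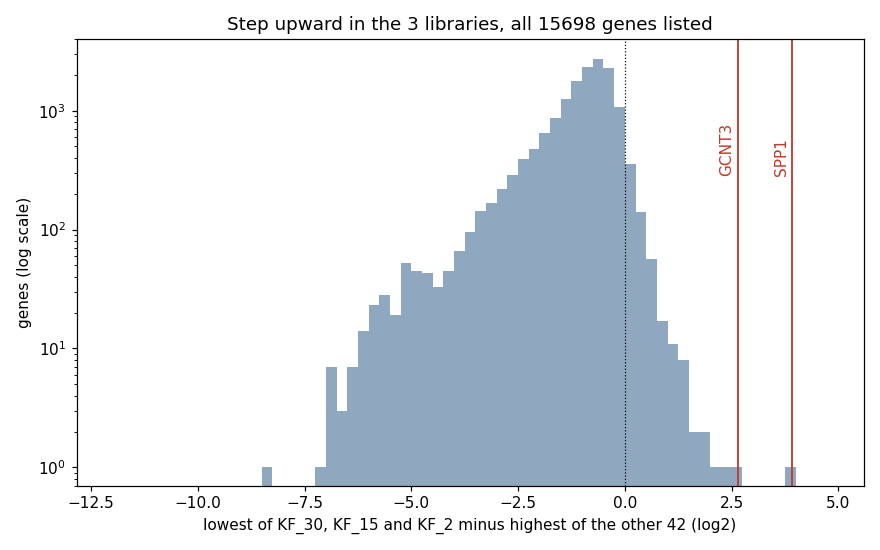
Histogram of the upward step of all 15698 genes, as the lowest log2 value of KF_30, KF_15 and KF_2 minus the highest of the other 42 libraries (horizontal axis), with the number of genes on a log axis. Most genes lie below 0 (dotted line), and the red lines mark GCNT3 at 2.65 and SPP1 at 3.92.

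The set KF_5, KF_40 and KF_23, in which no target gene was lowest, had the fewest genes beyond the range of all other libraries (6 above and 4 below) and serves as a second comparison. SPP1 read -0.31, -2.24 and -4.15 there, from 11, 2 and 0 reads. This was the widest of the 15 sets for SPP1, and its median rested on 2 reads. Summed over each set, 765 SPP1 reads in KF_30, KF_15 and KF_2 stood against 13, a ratio of 61.5 in CPM (exact 95% interval 35.7 to 116). Of those 13 reads 11 came from KF_5, and without it the ratio rested on 2 reads and was 236 (65.2 to 1954). GCNT3 read -1.38, -0.31 and -0.98 there, from 5, 9 and 4 reads. Its summed reads were 363 against 18, a ratio of 21.1 (13.1 to 36). The intervals of these ratios cover counting error of the sums only, not the spread between libraries. The SPP1 ratio of 236 without KF_5 lay outside the interval of the full sums. Because the pair was chosen by its height in the 3 libraries, the intervals describe the sums and lend no support to the difference. On the log2 scale the medians differed by 6.73 for SPP1 and by 4.16 for GCNT3. The SPP1 difference was 7.69 without KF_5 and 5.77 without KF_23, both left out after the data were seen.

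Outside the 3 libraries, SPP1 still ranged from a few reads to none, and the 14 other sets can be put in an order. The set with the lowest EIF3L, a subunit of translation initiation factor eIF3, came next with 13 to 17 reads per library and a median log2 value of 0.24. It was followed by the set with the lowest CCNK, the cyclin K partner of CDK12 and CDK13, with 14 to 18 reads and a median of 0.13. From there each set overlapped its neighbour in the order, down to KF_41, KF_43 and KF_10 with 7 reads each and a median of -0.53. That set did not overlap the next in the order, KF_33, KF_12 and KF_42. Single libraries of sets still further down lay above its values, namely KF_5 (-0.31, 11 reads) and KF_25 (-0.36, 7 reads). SPP1 levels therefore showed no break at this place. Further down came the sets with medians from -0.95 to -2.29. They included the sets lowest in TOX4 (-1.05), CDK10 (-1.18), POLR2D (-1.24), JAK2 (-1.75) and GLI1 (-2.29), each overlapping its neighbour in the order.

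At the bottom of the order SPP1 was close to absent. The set with the lowest NFYA, the DNA-binding regulatory subunit of the CCAAT factor NF-Y, held 2 SPP1 reads in all, and the set with the lowest SAP130, a subunit of the SIN3 histone deacetylase complex, held 1. These sets did not overlap the one above them but overlapped each other. They held 0 or 1 reads per library, and with the floor of 3 reads their levels cannot be set apart from those of several sets above. As a description over the 42 libraries, the correlation of SPP1 with the SAP130 level was r = 0.49, the highest in size among the 11 targets. The next in size was CCNK with r = -0.38. SAP130 and CCNK were each lowest in 1 set, at the bottom and near the top of the SPP1 order. Both correlations hence restate part of that order. Libraries of a set may share their source, so these 42 points cannot be taken as independent.

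GCNT3 had a different order of sets. The set with the lowest JAK2, a tyrosine kinase of cytokine receptors, came next after KF_30, KF_15 and KF_2, with 13, 13 and 5 reads and a median of -0.10. It overlapped the set KF_33, KF_12 and KF_42 (median -0.16), which held the highest single value outside the 3 libraries. From there each set overlapped its neighbour down to the set lowest in CDK10, at a median of -2.82 with 5 reads in all. The only gap in the order of GCNT3 was hence the one below the 3 libraries. The set lowest in EIF3L, second for SPP1, was ninth for GCNT3, and the set lowest in JAK2, second for GCNT3, was eleventh for SPP1.

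The pair therefore did not keep a common order outside the 3 libraries. Over all 45 libraries Pearson's r between SPP1 and GCNT3 was 0.64 and Spearman's rho 0.39. Over the 42 libraries outside the 3, r was 0.22 and rho 0.25, from values near the limit of detection. Over the medians of the 14 other sets r was 0.36. The plot of one gene against the other places the 3 libraries alone in the upper corner.

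**Figure D3:**
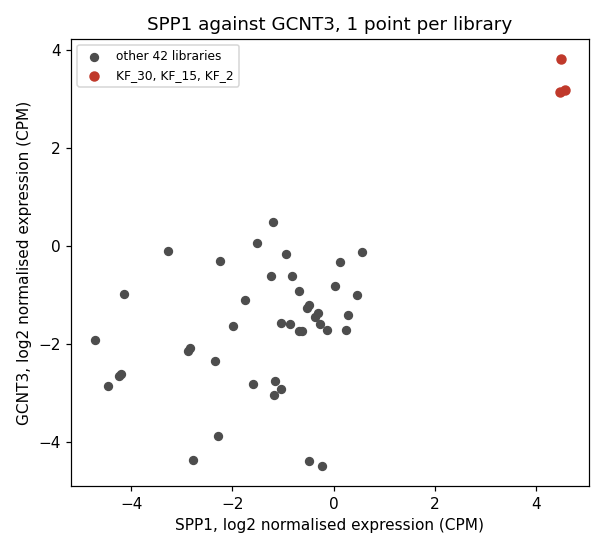
Log2 normalised expression of SPP1 (horizontal axis) and GCNT3 (vertical axis), both in CPM, with 1 point per library. KF_30, KF_15 and KF_2 (red) lie apart from a cloud of 42 libraries in which r was 0.22.

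The genes most like SPP1 over the 45 libraries, by Pearson's r on the log2 values, were led by KIAA1217 (r = 0.85) and PLPP5 (r = 0.82). Without the 3 libraries these correlations were 0.65 and 0.66. RTCA, CYP4F11, NXPE3 and KATNAL1 were also among the first 10, at 0.78 to 0.80. CYP4F11, a cytochrome P450 that hydroxylates fatty acids, itself had a step of 1.92 and a difference of medians of 3.27. The remaining 4 places were taken by ANXA2, the calcium-dependent membrane protein annexin A2, and its pseudogenes ANXA2P1, ANXA2P2 and ANXA2P3 (r = 0.79 to 0.81), which are near copies and can share reads, so they count as 1 uncertain signal. The likeness depends on the values that chose SPP1, and it is given with no p-value.

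GCNT3 was most like ARFGAP3, a GTPase-activating protein of the Golgi (r = 0.79 over 45 libraries and 0.63 over 42). PSMB7, a catalytic subunit of the 20S proteasome, followed with r = 0.76, and CALB2, the calcium-binding protein calretinin, with r = 0.75. Over the 42 libraries r was 0.43 for PSMB7 and 0.57 for CALB2. PLAA, DIP2C, YWHAZ and LMNA, as well as ANXA2, its pseudogene ANXA2P3 and the moesin pseudogene MSNP1, filled the first 10 places at 0.71 to 0.74. Over the 42 libraries r with GCNT3 was 0.39 for ANXA2, 0.48 for ANXA2P3 and 0.30 to 0.45 for MSNP1, PLAA, DIP2C, YWHAZ and LMNA. Of the genes named here, ARFGAP3 alone stayed among the first 10 when ranked over the 42. ANXA2 and ANXA2P3 were the only genes on both lists. Both lists include the 3 libraries that chose the pair, so any gene high there tends onto both.

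Among the relatives of GCNT3, which build O-glycan and I-antigen branches, GCNT4 was the only other member above all 42 libraries. Only 3 of these relatives were in the matrix, so beside 3.82% of all genes this count says nothing particular. GCNT4, a core 2 enzyme, read 0.36, 0.41 and 0.11 in KF_30, KF_15 and KF_2, while the other libraries had a median of -2.57 and reached -0.29. Its difference of medians was 2.92, from a median of 13 reads in the 3 libraries. GCNT1, the leukocyte core 2 enzyme, read 2.76, 2.85 and 2.68 within a range of 2.35 to 3.70. GCNT2, the I-branching enzyme, read -0.31, 0.04 and -0.38 within a range of -4.72 to 0.67. GCNT7 was not among the genes of the matrix used here.

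GCNT3 works among the enzymes of mucin-type O-glycosylation. Of 21 genes on that list, 16 were in the matrix, of which 1 lay above and 1 below all 42 libraries, a number close to what the 3.82% and 1.59% of all genes would give. The median difference was -0.13 against -0.01 over all genes. GALNT5, which adds the first N-acetylgalactosamine, read 4.69 to 4.97 against a highest value of 4.38, a difference of medians of 1.06. GALNT2, an enzyme of the same family, read 4.23 to 4.42 against a lowest value of 5.15, a difference of -1.47. C1GALT1, which makes the core 1 structure that GCNT3 can branch, lay within the range of the others, with a difference of -0.17. Mucins, the carriers of these glycans, were represented by 5 of 13 genes, with 0 above and 0 below the other 42 libraries, which at 3.82% and 1.59% of all genes says nothing particular about so few. MUC3A had the highest level of these, with a median of 3.51 in the 3 libraries and 3.01 elsewhere.

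None of the other SIBLING genes (IBSP, DMP1, DSPP and MEPE) was in the matrix, so SPP1 was the only member measured. Of 10 receptor genes for osteopontin, 6 were in the matrix, of which 1 lay above all 42 libraries (3.82% of all genes did) and the median difference was 0.42. CD44 read 10.25, 10.27 and 10.17 against a median of 9.77, within the range of the other 42 libraries. ITGAV, the alpha chain of the vitronectin receptors, read 7.03, 7.14 and 6.92 and lay above all 42, but by 0.01 only, with a difference of medians of 0.67. Its partner chains ITGB1 and ITGB5 differed by -0.21 and 0.36, and ITGA5, the fibronectin receptor chain, by 0.71, each overlapping the other libraries. ITGA9 was near the limit of detection, with a median of 1 read in the 3 libraries. ITGB3, ITGB6, ITGA4 and ITGA8 were not among the genes of the matrix used here.

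Enzymes that modify osteopontin were represented by the secretory kinase FAM20C (difference of medians -0.25), the transglutaminase TGM2 (-0.26) and the protease MMP7 (0.75), all within the range of the other libraries. Of 11 transcription factors with a described part in SPP1 transcription, 11 were in the matrix, with 0 above and 0 below all 42 libraries, close to what 3.82% and 1.59% of all genes would give. Their median difference was 0.05. RUNX2, the osteoblast factor whose family core is printed in capitals above, read -0.15, 0.84 and 0.36 against a median of 1.30, a difference of -0.94. The AP-1 subunit FOSL1 read 7.66, 7.49 and 7.61 while the others had a median of 6.83 and reached 7.65, with a difference of medians of 0.78. The plot of these lists shows SPP1, GCNT3, GCNT4, GALNT5 and GALNT2 clear of the ranges of the other 42 libraries, and ITGAV at the edge of its range.

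**Figure D4:**
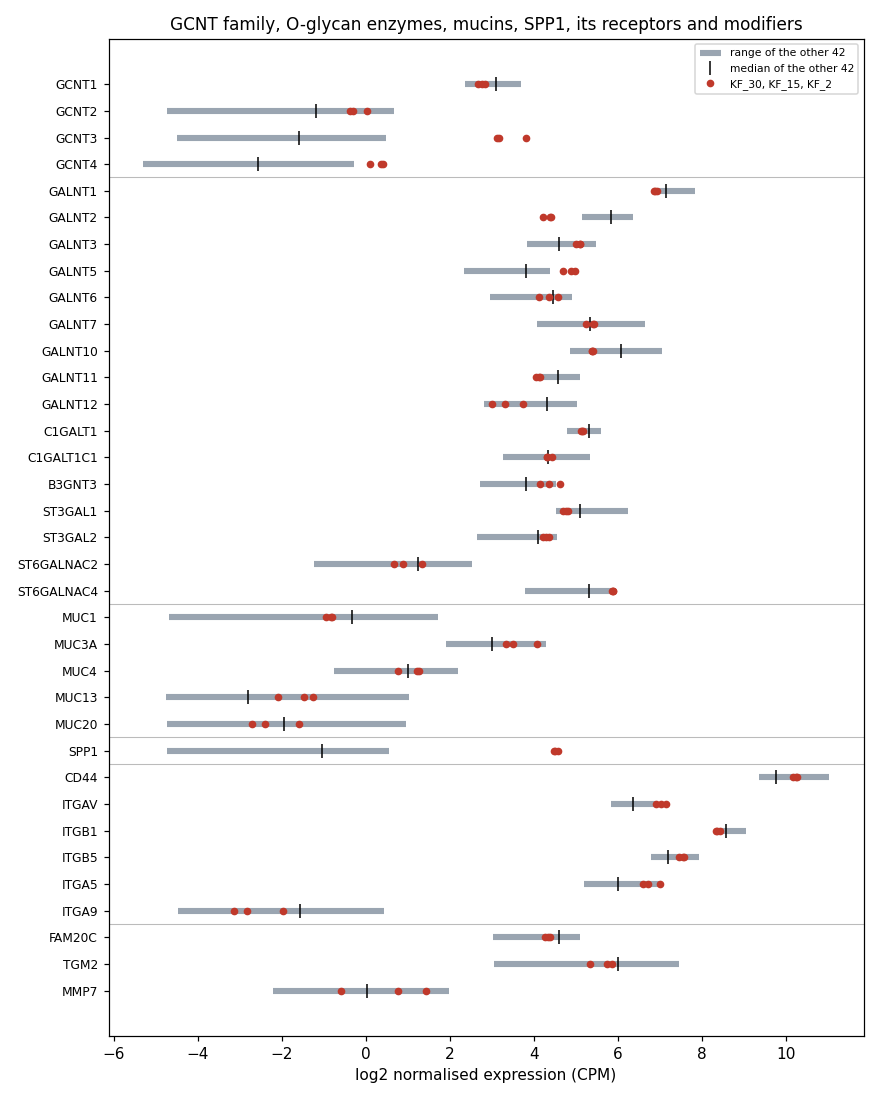
Log2 normalised expression (CPM, horizontal axis) of the listed genes of the GCNT family, O-glycan enzymes, mucins, SPP1, osteopontin receptors and modifying enzymes, separated by thin lines. Grey bars give the lowest to highest of the other 42 libraries with a tick at the median, and red points KF_30, KF_15 and KF_2. SPP1 and GCNT3 lie to the right of their bars by 3.92 and 2.65.

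The proteasome genes were high in the same libraries. Of the 20S core, 13 of 14 genes on the list were in the matrix, and 12 of these lay above all 42 libraries, against the 3.82% of all genes, with a median difference of 0.93. The exception was PSMA4. Of the other 17 subunits of the 19S particle, 15 lay above all 42 libraries with a median difference of 0.91, and PSMD11 and ADRM1 did not. None of these subunits had a step of 1, and their differences were far smaller than those of SPP1 and GCNT3. Among 12 genes of the heat shock, oxidative and unfolded protein responses, 1 lay above all 42 libraries (3.82% of all genes did). The differences of medians of these genes ran from 0.13 to 2.09 with a median of 0.62, against -0.01 over all genes. That was SQSTM1, the ubiquitin-binding autophagy receptor p62, at 9.88 to 10.07 against a highest value of 8.39. The stress transcription factors ATF3 and DDIT3 and the pseudokinase gene TRIB3 differed by 1.10, 1.00 and 0.89, and the chaperone genes HSPA1A and HSPA1B by 0.41 and 0.36, each within the range of the others.

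**Figure D5:**
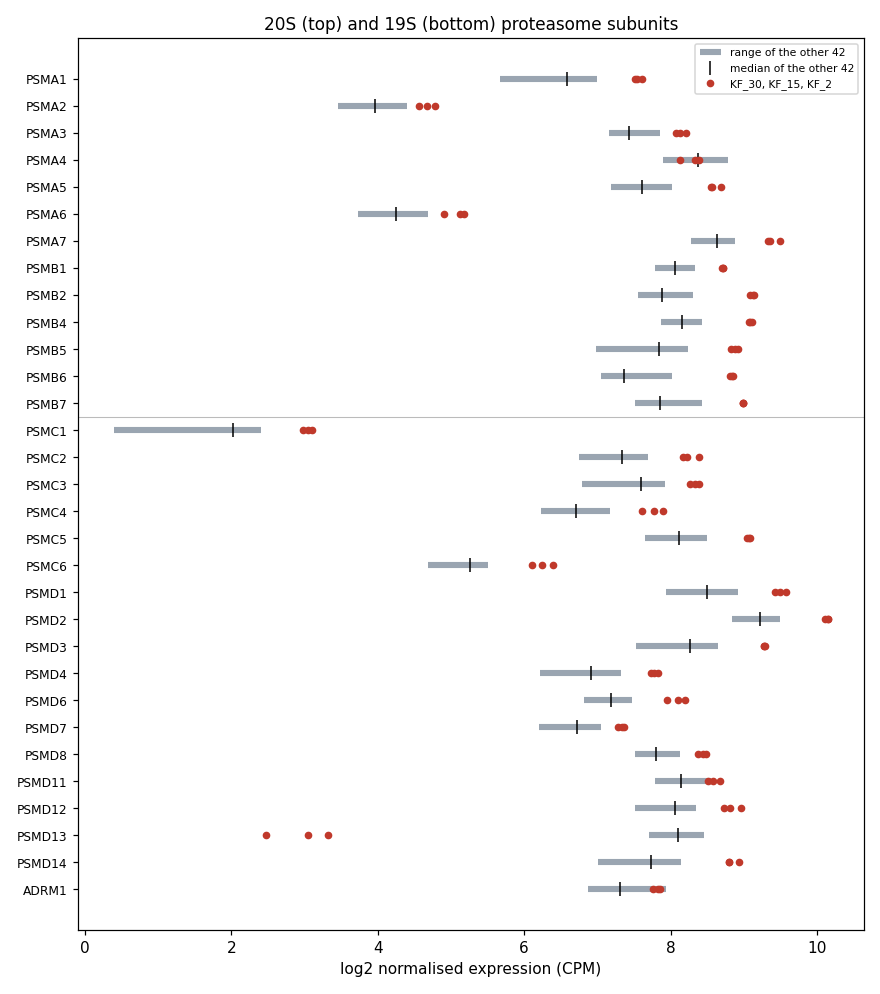
Log2 normalised expression (CPM, horizontal axis) of 20S (top) and 19S (bottom) proteasome subunit genes, with bars for the range of the other 42 libraries, ticks for their median and red points for KF_30, KF_15 and KF_2. PSMD13 lies at 2.47 to 3.32, left of its bar, and 27 other subunits lie to the right of theirs.

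SPP1 is also a product of macrophages and stromal cells, so their markers were read in the same libraries. Of 6 macrophage markers, only CD68, a lysosomal glycoprotein, was in the matrix, and PTPRC, CD14, CSF1R, LYZ and AIF1 were not among its genes. CD68 read 4.82 to 5.62 in the 3 libraries where the other 42 had a median of 1.97 and reached 4.63. It was thus high together with the pair, at 28.2 to 49.2 CPM against 1.49 to 24.7. Of 5 fibroblast markers only COL1A1 was in the matrix, at 7.67 to 12.6 CPM in the 3 libraries and 4.49 to 21.3 elsewhere. All libraries came from cultures of the HCT116-VR line, so CD68 is given as a level in that line and not as a measure of macrophages. The part of CD68 in the SPP1 values was not tested.

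The nearest genes of the matrix on either side of each member were also read. PKD2, which encodes polycystin-2 and starts 24103 bases beyond SPP1, had a difference of medians of -0.998, and ABCG2, an efflux transporter further along, of 0.78. On the lower side of SPP1 the pseudogene HSP90AB3P, which can share reads with its parent gene, differed by -0.10 and NUDT9 by 0.24. An antisense long non-coding RNA (ENSG00000286618) covers SPP1 and shares 87 exonic bases with it. The library kit does not mark strand, so reads from those bases cannot be told apart. Near GCNT3, BNIP2, an apoptosis regulator 18907 bases away, lay above all 42 libraries by 0.18, with a difference of medians of 0.57. It was the only one of these neighbours to lie above all 42, where 3.82% of all genes did, which says nothing particular about so few. The pseudogene PIGHP1 beyond it differed by -0.20, and FAM81A and the pseudogene NSA2P4 on the lower side of GCNT3 by -0.70 and 0.56. GTF2A2, a subunit of general factor TFIIA that overlaps the end of GCNT3 on the other strand without sharing canonical exonic bases, differed by -0.02.

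Other sets had genes with a step too, which sets the scale for the pair. The set lowest in POLR2D, a subunit of RNA polymerase II, had 186 genes with an upward step of at least 1, and the remaining 13 sets had between 0 and 9. The set KF_30, KF_15 and KF_2 thus had the second highest number, 27, with SPP1 and GCNT3 at its head.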

How the data were processed

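RNAseq of poly-A RNA (TruSeq v2, not stranded, single end) was analysed for 45 libraries of HCT116-VR cells. The submitters' processing notes name CASAVA 1.8.2, TopHat 1.4.1, HTSeq, limma and GRCh37, and the study's methods name Ensembl release 67. The authors deposited log2 values normalised with Limma-Voom, which are log2 CPM with 0.5 reads added and a scaled library size, for 15698 genes. Whole reads were recovered by reading each library's minimum as 0 reads, and 100% of values came within 0.001 of a whole number. Such reads were used for counts, intervals and levels per length.

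Libraries were grouped as 15 sets of 3 adjacent columns, since the labels do not name the columns and the sample list goes against the target genes. No condition was assigned, so no comparison between conditions and no test was made. The members, the gene lists and the 3 libraries were chosen with earlier results of these data known. Genes named were SPP1, GCNT3 and PSMD13, the 10 genes with the highest Pearson r to each member among the 15444 genes reaching a log2 value of 0 in 3 or more libraries, list genes with a step of at least 1, and all GCNT, SIBLING and receptor genes. Chromosomal neighbours were named by position, and all other genes after their values were seen.

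Symbols and coordinates were taken from GENCODE (release 44, GRCh37), and 15366 identifiers had a symbol. Levels per length used canonical transcripts. Python 3.11.15, numpy 2.4.6, pandas 2.3.3, scipy 1.17.1 and matplotlib 3.10.9 were used, and the step counts were tested on simulated data. The genes raised in that simulation had more reads on average than SPP1 or GCNT3, so it did not cover counts as low as theirs. Alternatives were library totals, median centring, quantile normalisation, 5 reads added, the filter on low values, leaving out each library and leaving out the next highest set.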

Additional observations from a re-analysis of the deposited data

How the results depend on the processing

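With 5 reads added in place of 0.5, the difference of medians of SPP1 from KF_5, KF_40 and KF_23 was 5.27 in place of 6.73, that of GCNT3 from the same libraries 3.23 in place of 4.16, and that of GCNT3 from the other 42 libraries 3.81 in place of 4.77. The SPP1 difference from the other 42 fell less than the spread within sets, from 5.54 to 4.71. Adding more reads shrinks the difference of a gene with few reads by construction. Leaving out each of KF_5, KF_40 and KF_23 in turn, chosen after the data were seen, gave SPP1 differences from 5.77 (without KF_23) to 7.69 (without KF_5), and SPP1 ratios of summed reads from 45.9 (without KF_23) to 236 (without KF_5) in place of 61.5. No difference or step of the pair changed sign under the alternatives run. The pair was chosen for its height in the 3 libraries, so this was to be foreseen and is no support. The filter on low values left the values of the pair as they were. The step ranged from 3.64 to 3.93 for SPP1 and from 2.33 to 2.69 for GCNT3, the number of genes with a step of at least 1 from 24 to 34, and r over the 42 libraries from 0.11 to 0.36. Library totals moved the median of all genes to -0.09, the largest shift of the scalings run. No paired analysis was possible because the results come from no test and the columns carry no replicate numbers. Depth limits the order of sets below about 3 reads per library, where SPP1 stood in 15 and GCNT3 in 17 of the other 42 libraries.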
